A study of Mus musculus with 6 samples.

Results

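The genes described here are 10 plasma membrane transporters of amino acids, glucose and lactate that T cells are known to raise when activated, picked by symbol from a fixed list. All 10 were found among the 54532 genes of the count table, and all 10 were among the 13900 genes tested. They were measured by bulk RNA sequencing of CD4+ T cells that were naive at the start of culture, from spleens of C57BL/6 mice. All libraries shared a 72 h culture in which beads engaged CD3 and CD28, IL-2 was present, and IFNγ and IL-4 were neutralised by antibodies. The compared groups were 3 libraries from cells given NETs and 3 from cells given vehicle. NETs (neutrophil extracellular traps) are meshes of DNA, histones and granule proteins cast out by neutrophils. The sources used here do not give the age of the mice, the origin and dose of the NETs, or whether replicates were separate animals or cultures. The p-values therefore measure the spread between these samples, which may be technical. No unstimulated library was analysed, so the rise on activation was not measured.

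A resting T cell takes up few nutrients. Once the T cell receptor and CD28 are engaged, it needs amino acids for protein synthesis and for the growth kinase complex mTORC1, glucose for glycolysis, and a way to release the lactate that glycolysis makes. Slc7a5 is the light chain of the large neutral amino acid exchanger LAT1, and Slc3a2 (CD98) is the heavy chain that brings it to the membrane. Slc1a5 (ASCT2), Slc38a1 (SNAT1) and Slc38a2 (SNAT2) carry glutamine and other small neutral amino acids, and Slc7a1 (CAT1) carries arginine and lysine. Slc2a1 (GLUT1) and Slc2a3 (GLUT3) carry glucose. Slc16a1 (MCT1) and Slc16a3 (MCT4) carry lactate with a proton, and reach the membrane with the chaperone basigin (Bsg).

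Libraries held between 15657622 and 18655997 counts. The markers of T cells were abundant, at 4490 to 5040 summed CPM (a gene's counts relative to the library's total, on the usual CPM scale) over 10 genes with vehicle and 4520 to 4790 with NETs. Summed neutrophil markers (12 genes, with Ly6g at 0 in all libraries) stood at 2.73 to 3.83 CPM with vehicle and 5.12 to 6.25 CPM with NETs. Within that list S100a9 had no read with vehicle and 0.932 to 1.3 CPM with NETs. S100a8 did not overlap either, at 0 to 0.0639 CPM with vehicle and 0.408 to 0.598 CPM with NETs. The remaining markers of the list did not separate the groups. Mpo stood at 0.932 to 2.36 CPM with vehicle and 1.85 to 2.39 CPM with NETs. Ltf stood at 0.192 to 0.622 and 0.292 to 0.408 CPM, and Prtn3 at 0.375 to 0.766 and 0.292 to 0.582 CPM. Summed markers of monocytes, macrophages and dendritic cells (10 genes, none at 0 throughout) ranged from 31.0 to 42.2 CPM with vehicle and from 40.9 to 54.5 CPM with NETs, most of it Lyz2. The part of these cells in the transporter values was not tested. B cell markers summed to 18.7 to 20.2 CPM with vehicle and 14.6 to 20.9 CPM with NETs. In bulk RNA, a change in how many cells express a gene and a change per cell cannot be told apart.

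The first question was whether NETs changed the transcripts of any transporter. With edgeR (quasi-likelihood, Benjamini-Hochberg over all genes), 0 of the 10 passed an adjusted p of 0.05, as did 0.0% of all 13900 genes. The smallest adjusted p among them was 0.344. Unadjusted, 2 of 10 had a p under 0.05, Slc7a5 and Slc16a3, both higher with NETs, where 12.8% of all genes tested lay under that value (6.72% higher and 6.06% lower). Of the 10 log2 fold changes, 6 were above 0 and 4 below (50.2% of all genes were above 0), with a median of 0.06, against 0.001 over all genes tested. The groups did not overlap for 1 of 10, Slc38a1, with NETs below, against 16.7% of all genes (7.68% with NETs above and 9.04% below). DESeq2 also called 0 of the 10, while 2.07% of the 7004 genes it gave an adjusted p passed. limma called 0 of the 10 as well, with 0.00719% (voom) or 0.0144% (log2(FPKM + 1) and log2(FPKM + 0.1)) of all genes called. With 1 library left out, 1 of the 10 passed without vehicle replicate 3 (2.81% of all genes) and 0 without NETs replicate 1 (0.00696%) or NETs replicate 2 (0.014%). With 431 to 7669 reads per transporter and library, counting error was small, and the 95% intervals of 9 of the 10 differences lay within 2-fold in either direction.

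**Figure D1:**
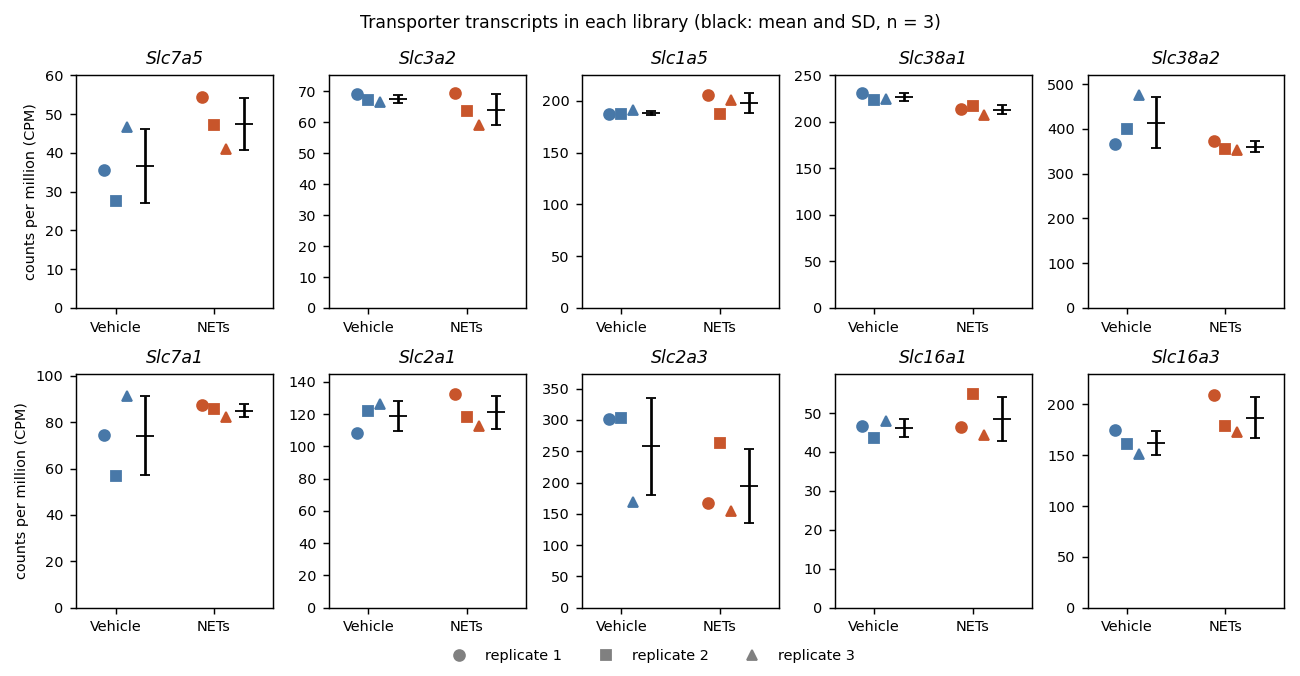
CPM (vertical axes, from 0) of each transporter in the 3 Vehicle (blue) and 3 NETs (orange) libraries; marker shape gives the replicate number, and the black bar is the group mean with its SD. The groups overlap in all panels but that of Slc38a1, and Slc2a3 splits into a high and a low set that each hold libraries of both treatments.

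Slc7a5, the LAT1 light chain (ENSMUSG00000040010; GRCm38 chromosome 8, 121881150 to 121907694, minus strand), had the largest positive difference of the 10. It stood at 35.6, 27.5 and 46.6 CPM in vehicle replicates 1 to 3 and at 54.4, 47.3 and 40.9 CPM in NETs replicates 1 to 3. Vehicle replicate 3 lay above NETs replicate 3 and just below NETs replicate 2, so the groups overlapped. The means were 36.6 ± 9.59 and 47.5 ± 6.76 CPM (SD, n = 3 each), and the log2 fold change was 0.39 (1.31-fold; SE 0.16; 95% interval 0.04 to 0.74; edgeR adjusted p = 0.344). Without vehicle replicate 3 the log2 fold change was 0.60 and the adjusted p 0.0397, so that library decided the call. Without vehicle replicate 2 the log2 fold change was 0.23. No annotated gene with a read overlaps the Slc7a5 locus.

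Its partner Slc3a2 (ENSMUSG00000010095; chromosome 19, 8706882 to 8723369, minus strand) was steady. Vehicle libraries held 69.1, 67.4 and 66.6 CPM, and NETs libraries 69.4, 63.8 and 59.2 CPM. The NETs libraries spread more widely, and the highest and the lowest of the 6 values both belonged to them. The log2 fold change was −0.07 (SE 0.09; 95% interval −0.27 to 0.13; edgeR adjusted p = 0.803). Across the 6 libraries the heavy chain varied with a coefficient of variation of 5.81% and the light chain with 22.7%, where counting alone gives 2.97% and 3.71%. The ratio of Slc7a5 to Slc3a2 in FPKM was 0.364, 0.289 and 0.495 with vehicle and 0.555, 0.524 and 0.488 with NETs. Vehicle replicate 3 again lay among the NETs libraries. The log2 ratio differed by 0.48 (two-sided exact permutation p = 0.2, 0.5 after adjustment over 10 ratios; 3 against 3 cannot go below 0.1).

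Slc3a2 also pairs with other light chains, and these were read for comparison. Slc7a6 (y+LAT2), which exchanges cationic for neutral amino acids, averaged 41.6 CPM in each group (log2 fold change 0.01, SE 0.13). Slc7a5 made up 48.9%, 46.0% and 50.6% of the summed FPKM of 6 light chain genes with vehicle, and 61.7%, 54.9% and 48.7% with NETs. The size of such shares depends on the gene length that FPKM divides by. NETs replicate 3 lay within the vehicle range. The cystine exchanger light chain Slc7a11 had 52 reads with vehicle and 47 with NETs, and the LAT2 light chain Slc7a8 had 28 and 70 reads, so neither approached Slc7a5, which had 1845 and 2505.

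Slc7a1, the arginine and lysine carrier (ENSMUSG00000041313; chromosome 5, 148327410 to 148399904, minus strand), had the library pattern most like that of Slc7a5. Its vehicle libraries stood at 74.4, 56.9 and 91.3 CPM and its NETs libraries at 87.4, 85.5 and 82.2 CPM. As for Slc7a5, vehicle replicate 2 was lowest of all 6, and here vehicle replicate 3 was highest. The NETs libraries were close together, with a coefficient of variation of 3.09%, against 23.2% with vehicle. The difference had a log2 fold change of 0.21 (SE 0.13; 95% interval −0.07 to 0.49; edgeR adjusted p = 0.520), and it ranged from 0.06 without vehicle replicate 2 to 0.38 without vehicle replicate 3. Slc7a1 took 98.5% to 99.6% of the summed FPKM of the 3 genes Slc7a1, Slc7a2 and Slc7a3 in each library.

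Over the 6 libraries the log2 CPM of Slc7a5 and Slc7a1 had Pearson r = 0.94 (exact permutation p = 0.00833) and Spearman rho = 0.83 (exact permutation p = 0.0583). Without the 2 libraries farthest from the median of Slc7a5, r was 0.93. The pair had the highest r of 45 pairs of transporters, and after adjustment over the 45 pairs the exact permutation p was 0.375 for r and 0.932 for rho, so the relation did not pass. Slc7a5 and Slc3a2, whose products form a dimer, had r = −0.05 and rho = 0.09 (exact permutation p = 0.901 and 0.919, and 0.978 and 1.0 adjusted), and r = −0.27 without the 2 farthest libraries. The 45 values of r had a median of 0.086, with 25 above 0 and 20 below.

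**Figure D2:**
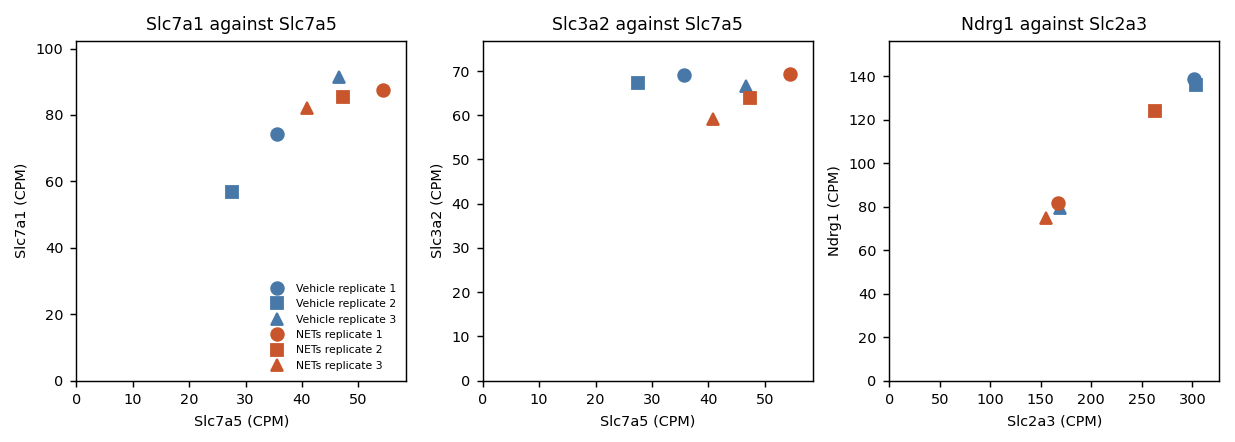
CPM of Slc7a1 against Slc7a5, of Slc3a2 against Slc7a5 and of Ndrg1 against Slc2a3, with 1 point per library, colour for treatment and shape for replicate number (axes from 0). Vehicle replicate 2 is lowest for both Slc7a5 and Slc7a1 (their correlation did not pass adjustment), Slc3a2 lies between 59.2 and 69.4 CPM, and in the right panel 3 libraries lie low and 3 high, each set mixing both treatments.

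The glutamine carriers differed little between groups. Slc1a5 (ENSMUSG00000001918; chromosome 7, 16781340 to 16798274, plus strand) had 187, 187 and 191 CPM with vehicle and 206, 187 and 201 CPM with NETs. NETs replicate 2 lay among the vehicle libraries and the other NETs libraries lay above them. The log2 fold change was 0.08 (SE 0.08; 95% interval −0.09 to 0.25; edgeR adjusted p = 0.689), so a difference beyond 1.19-fold lay outside the interval. Its vehicle libraries varied by 1.09%, within the 1.74% that counting alone gives.

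Slc38a1 (ENSMUSG00000023169; chromosome 15, 96571418 to 96642913, minus strand) was the member whose groups did not overlap. It stood at 231, 223 and 224 CPM with vehicle and at 214, 217 and 208 CPM with NETs. All 3 NETs libraries lay below all 3 vehicle libraries, by a small margin. The log2 fold change was −0.08 (SE 0.08; 95% interval −0.24 to 0.09; edgeR adjusted p = 0.702). The spread edgeR estimated for Slc38a1 was lower than that of all but 0.108% of genes tested.

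Slc38a2, the carrier that cells raise when amino acids run short (ENSMUSG00000022462; chromosome 15, 96687392 to 96699730, minus strand), lies on the same chromosome and strand as Slc38a1 and had the most reads of the 10. Vehicle libraries held 366, 400 and 477 CPM and NETs libraries 374, 355 and 352 CPM. Vehicle replicate 3 stood apart at the top, and vehicle replicate 1 lay between NETs replicates 1 and 2. The means of 414 ± 56.7 and 360 ± 11.8 CPM gave a log2 fold change of −0.19 (SE 0.10; 95% interval −0.39 to 0.02; edgeR adjusted p = 0.424). Without vehicle replicate 3 the log2 fold change was −0.08, and without vehicle replicate 1 it was −0.28. The ratio of Slc38a2 to Slc1a5 was the only one of 10 ratios tested whose groups did not overlap, at 0.418, 0.457 and 0.534 with vehicle and 0.389, 0.405 and 0.374 with NETs in FPKM. Its log2 difference was −0.26 (exact permutation p = 0.1, the lowest possible here, and 0.5 adjusted). The ratio of Slc38a1 to Slc38a2 overlapped between groups (exact permutation p = 0.6).

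Slc2a1, or GLUT1 (ENSMUSG00000028645; chromosome 4, 119108711 to 119137983, plus strand), stood at 108, 122 and 126 CPM with vehicle and at 133, 118 and 113 CPM with NETs. The lowest value was a vehicle library and the highest a NETs library, and between them the 2 other NETs libraries lay below the 2 other vehicle libraries. The log2 fold change was 0.04 (SE 0.09; 95% interval −0.16 to 0.24; edgeR adjusted p = 0.891), and its sign turned without vehicle replicate 1 (−0.03) or NETs replicate 1 (−0.03). The antisense genes Gm12867 and Gm12868 and the miRNA gene Mir1957a overlap the locus, with 123, 23 and 69 reads over all libraries against 12327 for Slc2a1. Whether the counting used strand is not stated in the sources used here.

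Slc2a3, or GLUT3 (ENSMUSG00000003153; chromosome 6, 122727809 to 122801640, minus strand), varied most among the 10, with a coefficient of variation of 31.2% over the 6 libraries against 1.6% from counting alone. It stood at 301, 304 and 169 CPM with vehicle and at 167, 263 and 155 CPM with NETs. Vehicle replicates 1 and 2 and NETs replicate 2 were high, and vehicle replicate 3 and NETs replicates 1 and 3 were low, with no value between 169 and 263 CPM. The means of 258 ± 77.4 and 195 ± 59.0 CPM gave a log2 fold change of −0.39 (SE 0.30), the largest negative difference of the 10. Its 95% interval ran from −1.12 to 0.33 (edgeR adjusted p = 0.623), so it was the widest of the 10. Leaving out vehicle replicate 3 moved the log2 fold change to −0.62 and leaving out NETs replicate 2 moved it to −0.66, while without vehicle replicate 1 or 2, or NETs replicate 1 or 3, it lay between −0.29 and −0.25. The labels name no batch that matches this split. The processed pseudogene Gm4482 lies in the locus with 25 reads.

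Shares within the glucose transporter family are computed from the same values. Slc2a3 made up 62.0%, 61.5% and 46.0% of the summed FPKM of 12 facilitative glucose transporter genes with vehicle and 44.8%, 58.3% and 46.7% with NETs. Slc2a1 made up 26.5%, 29.3% and 40.9% with vehicle and 42.3%, 31.1% and 40.4% with NETs. These shares depend on the length behind FPKM. Per kilobase of deposited gene length, Slc2a3 and Slc2a1 stood at 35.6 and 33.8 CPM with vehicle and at 26.9 and 34.5 CPM with NETs. The ratio of Slc2a1 to Slc2a3 overlapped between groups, with a log2 difference of 0.42 (exact permutation p = 0.3, 0.5 adjusted). It was 0.22 without vehicle replicate 1 and 0.75 without vehicle replicate 3. Of the other sugar transporter genes, 5 of 14 were tested and 0 lay under an unadjusted p of 0.05, where 12.8% of all genes did. Slc50a1 had a log2 fold change of −0.19, Slc2a9 of −0.12 and Slc2a6 of −0.06.

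The genes whose library pattern was nearest to that of Slc2a3 were sought among 9637 candidates, a search added after its values were seen. The candidates were other genes averaging 5 CPM or more, leaving out provisional symbols (Gm followed by digits, or ending in Rik). The nearest was Ndrg1, a stress-response gene known to respond to low oxygen (Pearson r = 0.998 over 6 libraries). Ndrg1 stood at 139, 136 and 79.4 CPM with vehicle and at 81.6, 124 and 74.8 CPM with NETs. It too was low in vehicle replicate 3 and NETs replicates 1 and 3. The next were Cep57l1 (r = 0.995) and Zfp414 (r = 0.986). These values of r describe 6 libraries that the genes share, and the highest of 9637 is high by selection.

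The lactate carriers are shown with the sequence before a RefSeq start, since these windows differ in the short motifs looked for. The letters are RefSeq's, on GRCm38.p6, plus strand, 5′ to 3′, and capitals mark CACGTG (bound by Myc, Max and Mlx proteins) or ACGTG (the core bound by HIF). The Slc16a1 stretch is chr3:104638414-104638663 and the Slc16a3 stretch is chr11:120948817-120949052.
Slc16a1: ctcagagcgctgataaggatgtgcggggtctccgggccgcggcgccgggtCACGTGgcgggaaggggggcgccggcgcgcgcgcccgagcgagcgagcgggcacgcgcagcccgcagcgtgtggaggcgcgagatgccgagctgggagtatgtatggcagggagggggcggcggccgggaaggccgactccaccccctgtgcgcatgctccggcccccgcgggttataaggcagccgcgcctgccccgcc
Slc16a3: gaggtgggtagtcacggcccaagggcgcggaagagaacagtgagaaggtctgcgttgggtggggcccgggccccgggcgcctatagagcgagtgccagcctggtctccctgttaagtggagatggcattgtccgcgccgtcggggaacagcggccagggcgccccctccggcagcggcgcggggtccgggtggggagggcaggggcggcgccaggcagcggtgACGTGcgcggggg
The Slc16a1 stretch ends at the RefSeq start. The Slc16a3 stretch stops 14 bases short of it, because those bases overlap an annotated UTR of Slc16a3, and a second ACGTG lies in the bases left out. That RefSeq start lies inside Slc16a3 as the deposited table bounds the gene, so the Slc16a3 stretch is within the gene and downstream of the start given with its values.

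Of the 10 transporters, 6 had an entry in the promoter table (Slc3a2, Slc38a2, Slc7a1, Slc2a1, Slc16a1 and Slc16a3), with 7 windows of 250 bases before a RefSeq start. The windows of Slc3a2 and Slc16a3 and 1 of the 2 windows of Slc7a1 lie inside the gene as the deposited table bounds it. Slc7a5, Slc1a5, Slc38a1 and Slc2a3 had none. CACGTG, searched on both strands, was in 1 of the 7 windows, that of Slc16a1, and in 6.02% of all 32851 windows. ACGTG, which CACGTG contains, was in 4 of the 7 (Slc3a2, Slc2a1, Slc16a1 and Slc16a3) and in 16.6% of all windows. The ATF4 motif TGATGNAAN was in 0 of the 7 and in 3.44% of all windows. The windows of the transporters held up to 76.4% G and C, against a median of 52.4% over all windows. A match describes the letters only.

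Slc16a1 (ENSMUSG00000032902; chromosome 3, 104638668 to 104658462, plus strand) stood at 46.8, 43.6 and 48.0 CPM with vehicle and at 46.4, 54.9 and 44.3 CPM with NETs. Only NETs replicate 2 lay outside the vehicle range. The log2 fold change was 0.09 (SE 0.11; 95% interval −0.15 to 0.32; edgeR adjusted p = 0.774) and was −0.005 without NETs replicate 2.

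Slc16a3, the carrier of strongly glycolytic cells (ENSMUSG00000025161; chromosome 11, 120948480 to 120960868, plus strand), stood at 175, 161 and 151 CPM with vehicle and at 210, 179 and 173 CPM with NETs. NETs replicate 3 lay just under vehicle replicate 1, and the other NETs libraries lay above all vehicle libraries. The means of 162 ± 11.8 and 187 ± 19.8 CPM gave a log2 fold change of 0.22 (1.16-fold; SE 0.09; 95% interval 0.02 to 0.42; edgeR adjusted p = 0.355). Leaving out 1 library at a time gave 0.13 (without NETs replicate 1) to 0.27, and 0 calls. Slc16a3 took 89.2% to 92.4% of the summed FPKM of Slc16a1, Slc16a3, Slc16a7 and Slc16a8. This share depends on the length behind FPKM. With vehicle Slc16a3 and Slc16a1 averaged 105 and 10.4 FPKM, but 37.4 and 10.4 CPM per kilobase of the longest coding transcript.

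The chaperone Bsg averaged 260 ± 11.9 CPM in vehicle libraries and 283 ± 25.9 CPM in NETs libraries (log2 fold change 0.14, SE 0.09; edgeR adjusted p = 0.516). Embigin (Emb), a related chaperone of monocarboxylate carriers, stood at 197, 237 and 195 CPM with vehicle and at 168, 182 and 192 CPM with NETs (log2 fold change −0.21, SE 0.10; edgeR adjusted p = 0.397). Its groups did not overlap, as for 16.7% of all genes tested. The ratio of Slc16a3 to Bsg had a log2 difference of 0.08 (exact permutation p = 0.3), that of Slc16a1 to Bsg one of −0.05 (p = 0.6), and that of Slc16a1 to Slc16a3 one of −0.13 (exact permutation p = 0.4). All 3 overlapped between groups. The mitochondrial pyruvate carrier subunit Mpc2 had a log2 fold change of 0.16. In this list of 12 tested genes, 0 passed the adjusted threshold and 1 (8.33%, against 12.8% of all genes) lay under an unadjusted p of 0.05, the orphan carrier Slc16a4 (186 reads with vehicle and 72 with NETs, log2 fold change −1.43, SE 0.40; edgeR adjusted p = 0.223), which was named after its values were seen.

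**Figure D3:**
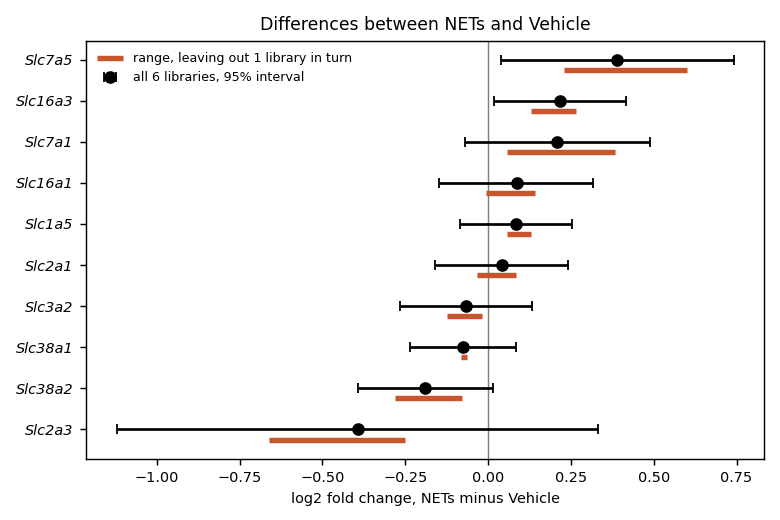
Log2 fold change of each transporter, NETs minus Vehicle, with edgeR's 95% interval (black, 6 libraries) and the range when each library is left out in turn (orange). Only the intervals of Slc7a5 and Slc16a3 exclude 0, neither passes the adjusted threshold, and Slc2a3 has the widest interval.

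The order of the transporters by level was read on 3 scales that differ in the length divided by: deposited FPKM, counts per kilobase of the deposited gene length, and counts per kilobase of the longest coding transcript. The length behind deposited FPKM equalled, within 1%, the plain mean of all annotated transcript lengths, short fragments included, for 98.7% of 13374 genes. For Slc1a5 it was 1151 bases, a mean over 8 transcripts of 396 to 2807 bases, and for Slc16a1, which has 1 transcript, it was 4426 bases. Deposited FPKM with vehicle put Slc1a5 highest (164 ± 1.79) and then Slc2a3 (149 ± 44.8), Slc16a3 (105 ± 7.66), Slc2a1 (81.6 ± 6.40) and Slc38a2 (76.9 ± 10.5; SD, n = 3 each). Slc3a2 followed at 66.6 ± 1.26, Slc38a1 at 54.0 ± 1.02, Slc7a1 at 30.3 ± 7.03, Slc7a5 at 25.5 ± 6.68 and Slc16a1 at 10.4 ± 0.518. Vehicle libraries overlapped between neighbours except between Slc16a3 and Slc2a1, Slc3a2 and Slc38a1, Slc38a1 and Slc7a1, and Slc7a5 and Slc16a1. With NETs the order was the same but for Slc16a3 (121 ± 12.8) standing before Slc2a3 (113 ± 34.1), whose libraries overlapped.

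Per kilobase of deposited gene length, Slc38a2 and Slc1a5 were close with vehicle, at 46.9 and 45.1 CPM per kilobase, and Slc1a5 stood first with NETs, at 47.4 against 40.8. On that scale Slc3a2 (19.2) stood above Slc38a1 (13.1) with vehicle, as in FPKM. Slc16a1 (10.4) and Slc7a5 (9.87) were in the reverse of their FPKM order with vehicle, and with NETs Slc7a5 (12.8) stood above Slc16a1 (11). Per kilobase of the longest coding transcript, a scale added after the files were seen, Slc38a2 came first with vehicle, at 88.9 ± 12.2 CPM per kilobase. Slc1a5 followed at 68.1 ± 0.745 and Slc2a3 at 65.1 ± 19.6, and Slc16a3 and Slc2a1 were next at 37.4 ± 2.73 and 36.4 ± 2.85. Slc38a1 stood at 31.1 ± 0.585 and Slc3a2 at 24.1 ± 0.457, in the reverse of their order on the other scales. Slc7a5, Slc16a1 and Slc7a1 were lowest, at 10.4, 10.4 and 10.3. With NETs Slc38a2 was again first on this scale, at 77.4 ± 2.52, and Slc7a5 stood at 13.5 ± 1.92, Slc7a1 at 11.8 ± 0.366 and Slc16a1 at 11 ± 1.27. Differences between treatments within a gene do not depend on this length. The size of family shares and of FPKM ratios between genes does depend on it.

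**Figure D4:**
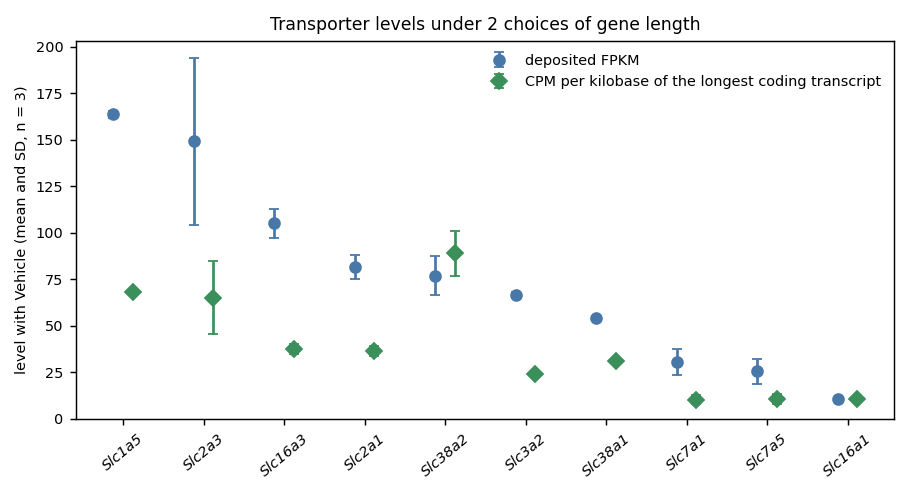
Level of each transporter in the Vehicle libraries (mean and SD, n = 3, axis from 0) as deposited FPKM (blue circles) and as CPM per kilobase of the longest coding transcript (green diamonds). Slc38a2 moves from the fifth place to the first between the scales, and Slc16a1 is the same on both.

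The other genes of these pathways were read from fixed lists, and 0 passed the adjusted threshold of edgeR in any of them. Among the other amino acid transporters 24 of 44 were tested. At an unadjusted p under 0.05, 1 was higher and 2 were lower, against 12.8% of all genes tested. The lysosomal arginine sensor Slc38a9 averaged 53.4 ± 6.70 CPM (vehicle) and 39.5 ± 2.64 CPM (NETs) (log2 fold change −0.42, SE 0.12; edgeR adjusted p = 0.223), and its groups did not overlap. Slc36a1, a lysosomal amino acid carrier, had a log2 fold change of −0.27 without overlap, and Slc38a10 one of 0.28 with overlap. Among the 24 tested, all NETs libraries lay below in 2 genes and above in 0, where 9.04% and 7.68% of all genes did. Without vehicle replicate 3, Slc38a9 passed (edgeR adjusted p = 0.0317). Its list had a median log2 fold change of −0.06.

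Of 40 genes of amino acid sensing and mTORC1, all were tested, with 23 above 0 (50.2% of all genes were), a median log2 fold change of 0.04, and 2 higher and 2 lower at an unadjusted p under 0.05. Those 4 of 40 stand beside 12.8% of all genes. Fnip1, a partner of folliculin that acts on the Rag GTPases, averaged 123 ± 2.94 CPM (vehicle) and 102 ± 2.77 CPM (NETs) (log2 fold change −0.26, SE 0.08; edgeR adjusted p = 0.229). Lamtor5, a Ragulator subunit, averaged 36.9 ± 5.92 and 47.5 ± 2.49 CPM (log2 fold change 0.38, SE 0.12; edgeR adjusted p = 0.251). The groups did not overlap for either gene, both named for a small p in this list. Among the 40, all NETs libraries lay above in 3 genes and below in 2, where 7.68% and 9.04% of all genes did. Sesn3, a sestrin that restrains mTORC1, had a log2 fold change of −0.20 with overlap.

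Among the first enzymes acting on the carried substrates, 26 of 32 were tested, with 19 above 0 (50.2% of all genes were), a median log2 fold change of 0.13, and 3 higher and 0 lower at an unadjusted p under 0.05. Those 3 are 11.5% of the list, near the 12.8% of all genes. Among the 26, all NETs libraries lay above in 2 genes and below in 0, where 7.68% and 9.04% of all genes did. The 3 were Ldha, which makes the lactate that Slc16a3 exports, Bckdk, a kinase that restrains branched-chain amino acid breakdown, and Wars, the tryptophanyl-tRNA synthetase. Bckdk averaged 55.4 ± 4.61 CPM (vehicle) and 69.0 ± 4.78 CPM (NETs) (log2 fold change 0.33, SE 0.10; edgeR adjusted p = 0.226), without overlap. Wars had a log2 fold change of 0.29, with overlap. Ldha stood at 1410, 1150 and 1510 CPM with vehicle and 1980, 1820 and 1520 CPM with NETs, so the groups did not overlap, though vehicle replicate 3 and NETs replicate 3 were close. Its log2 fold change was 0.40 (SE 0.11; edgeR adjusted p = 0.223), and DESeq2 called it (adjusted p = 0.0328).

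Among regulators of transporter transcription and trafficking, 28 of 29 were matched and tested, with 11 above 0 (50.2% of all genes were), a median log2 fold change of −0.07, and 1 higher and 4 lower at an unadjusted p under 0.05. Those 5 are 17.9% of the list, against 12.8% of all genes (6.72% higher and 6.06% lower). Hif1a, the oxygen-regulated factor that acts on Slc2a1 and Slc16a3, averaged 363 ± 20.0 CPM (vehicle) and 297 ± 32.0 CPM (NETs) (log2 fold change −0.28, SE 0.09; edgeR adjusted p = 0.252). Mlxip, a glucose-sensing factor, averaged 118 ± 8.70 and 97.9 ± 2.01 CPM (log2 fold change −0.25; edgeR adjusted p = 0.265). Akt2, a kinase that moves glucose transporters to the membrane, averaged 168 ± 4.81 and 193 ± 15.0 CPM (log2 fold change 0.22; edgeR adjusted p = 0.305). Myc, a known activator of Slc7a5 and Slc1a5 in T cells, averaged 139 ± 7.96 and 127 ± 3.79 CPM (log2 fold change −0.12; edgeR adjusted p = 0.551). The groups did not overlap for any of these 4 genes, as for 16.7% of all genes. Hif1a, Mlxip and Akt2 were named for having the smallest p among genes of the list averaging at least 5 CPM.

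The mean of the 10 transporters on the log2 scale differed little between libraries, from −0.09 in NETs replicate 3 to 0.07 in NETs replicate 1. The genes with the pattern nearest to it were Abcb10, a mitochondrial transporter (Pearson r = 0.999 over 6 libraries), Perp (r = 0.990), Gfer (r = 0.989), Tert (r = 0.986) and Ints10 (r = 0.981). They were the top 5 of 9637 candidates, so their r is high by selection.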

How the data were processed

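Counts per Ensembl gene, and FPKM, were deposited by the authors for 3 NETs and 3 vehicle libraries, grouped and numbered by their titles. The submitters' processing notes name STAR, DESeq2 and build mm9, yet all 10 transporters had the GRCm38 coordinates of GENCODE M21, as had 98.3% of genes in both annotations. The sources used here do not give the counting program, filters or strand use. The 2 deposited count tables held identical values.

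Counts were tested with edgeR 4.0.16 (R 4.3.3) after filterByExpr and TMM scaling, by a robust quasi-likelihood fit with treatment alone as the term and two-sided p, adjusted over 13900 genes at 0.05. Genes filtered out held 0.135% of reads. The median SE of a log2 fold change was 0.146. SE and 95% intervals came from the F statistic. CPM used library totals without TMM factors. Log2 CPM profiles used a pseudocount of 0.5. Counts carry no molecular identifiers. Ratios of 10 gene pairs were compared by exact permutation. Alternatives were DESeq2 1.42.0, limma 3.58.1 (voom, and trend on log2(FPKM + 1) or log2(FPKM + 0.1)), other scalings and filters, a replicate block and leaving out each library. The test was tried on simulated counts.

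Named genes were the 10 transporters, Bsg, Emb, Slc7a6, Myc, the 3 genes with the smallest p (mean of at least 5 CPM) of each of 6 other lists, the 5 nearest profiles, and marker genes. The members and lists were chosen with earlier results of these data known. One list symbol (Slc66a1) was matched through a RefSeq synonym. Same-numbered libraries did not deviate together (r = −0.081, −0.153 and −0.332 over 10081 genes), so the numbers were not taken as pairs.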

Additional observations from a re-analysis of the deposited data

How the results depend on the processing

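Over all genes edgeR called 0 of 13900 (1776 at an unadjusted p under 0.05). DESeq2 called 145 of the 7004 genes it gave an adjusted p (2.07%). Without the low-count filter edgeR called 322 of 24780 (1.3%). Of 13900 genes limma-voom called 1 and limma-trend 2 at each pseudocount. Leaving out 1 library gave 0 to 405 calls, the most without vehicle replicate 3 (405 of 14391, 2.81%). Of the transporters 0 were called in any alternative except the one without vehicle replicate 3, so leaving out 1 library gave 0 to 1 (Slc7a5, adjusted p = 0.0397). Without the low-count filter (1.3% of all genes called), 1 gene was called in each of several other lists. The calls were Slc38a9 of 38 other amino acid transporters, Slc16a4 of 17 genes of the monocarboxylate list, Ldha of 31 first enzymes and Mycl of 28 regulators. DESeq2 called 1 first enzyme of 16, Ldha (2.07% of all genes with an adjusted p). Leaving out 1 library gave 0 to 1 call among amino acid transporters, amino acid sensing, first enzymes and regulators, each without vehicle replicate 3. There 2.81% of all genes passed, and the calls were Slc38a9 (of 25 tested), Lamtor5 (of 40), Ldha (of 27) and Arrdc3 (of 28). Mycl and Arrdc3 were named after their values were seen.

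Signs turned for Slc2a1 without vehicle replicate 1 (−0.033) or NETs replicate 1 (−0.029), with 0.085 the highest, and for Slc16a1 without NETs replicate 2 (−0.005), with 0.142 the highest. Leaving out 1 library moved the log2 ratio of Slc38a1 to Slc38a2 between −0.006 and 0.205, of Slc16a1 to Bsg between −0.117 and 0.023 (0.002 without vehicle replicate 3), and of Slc2a1 to Slc16a1 between −0.138 and 0.069 (0.02 without vehicle replicate 2). The ratio of Slc7a5 to Slc3a2 ranged from 0.296 to 0.685, of Slc2a1 to Slc2a3 from 0.219 to 0.749, of Slc7a5 to Slc1a5 from 0.146 to 0.513 and of Slc16a1 to Slc16a3 from −0.255 to −0.019. The other transporters kept their sign in all 16 alternatives. With the replicate block edgeR called 0 genes and 0 transporters, and the log2 fold change of Slc7a5 was 0.41 (adjusted p = 0.48); it changed no call. Same-numbered libraries correlated negatively and 0 of 6 libraries correlated best with its own number, so the block rests on shared numbers only. With 3 libraries a group, the 95% interval of Slc7a5 ran from 1.03-fold to 1.67-fold and that of Slc2a3 from 0.46-fold to 1.26-fold.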
